A study of Mus musculus with 4 samples.

Results

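Classical monocytes of mouse liver tumours were selected on the RNA of single cells. A cell was counted as one when it held at least 1 UMI (unique molecular identifier, a captured RNA molecule) of Lyz2, UMIs of at least 2 of the markers Chil3, Ccr2, F13a1 and Ly6c2, and none of 9 genes of other myeloid and lymphoid cells (Clec4f, Vsig4, Trem2, Gpnmb, Ace, Retnlg, Cd209a, Cd3e and Cd79a). This rule found 647 of 24802 cells, or 2.61% (exact 95% interval 2.41 to 2.82%, counting error only). The levels of these 14 genes chose the cells and are given as a description, with no test.

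Classical monocytes are short-lived white blood cells that leave the bone marrow through the chemokine receptor CCR2 and carry much of the surface protein Ly6C. In a damaged or tumour-bearing liver they are recruited from blood and can become macrophages or cells that resemble dendritic cells. Non-classical monocytes, their counterpart, patrol the vessel wall and depend on the factor encoded by Nr4a1.

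The study compared 2 samples of liver tumour tissue from Miz1F/F mice, which carry floxed Miz1 alleles, with 2 from Miz1_delta_hep mice, a name that stands for deletion of Miz1 in hepatocytes. All 4 samples came from C57BL/6 mice aged 5 months that had received the carcinogen DEN at 25 mg/kg in week 2 of life and then weekly CCl4 at 0.5 ml/kg in corn oil, so no untreated liver stands beside them. How Cre was driven and whether animals were pooled is not given in the sources used here. Cells were captured with droplet chemistry that reads the 3′ end of each transcript. The deposited table holds 17813 genes and marks its cells with 4 barcode suffixes, called sets 1 to 4 here, and nothing in it ties a set to a sample or a genotype. The 2 genotypes were therefore not compared, the sets do not count as replicates, and no p-value is given.

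The 4 sets held 131, 50, 134 and 332 classical monocytes, which is 5.09%, 0.803%, 2.78% and 2.97% of their 2574, 6224, 4825 and 11179 cells. Set 1 had the highest share and set 2 the lowest. Of 1480 cells with Lyz2 and at least 2 markers, 833 were left out for UMIs of the 9 genes that must be 0. By set these were 261 of 392, 61 of 111, 59 of 193 and 452 of 784. The median classical monocyte held 5784, 1544.5, 1600.5 and 3435.5 UMIs in sets 1 to 4, and the median cell of any kind 2648, 906, 1037 and 1859, so the sets differ in depth as well. After every cell was thinned to 1000 UMIs and shallower cells were left out, the rule found 616 of 16914 cells (3.64%), with 7.87%, 1.87%, 3.91% and 3.12% in sets 1 to 4. The 9 genes that must be 0 were read from the thinned UMIs too, so cells left out at full depth could enter. In set 1 the count went from 131 to 173 cells, so the thinned selection is not the same cells at equal depth. The set order at the top and at the bottom was the same as before thinning. Among cells with a Lyz2 UMI the shares were 9.04%, 4.19%, 12.6% and 6.02%, and there set 3, not set 1, was the highest.

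Several groups of cells inside the selection stand apart and touch the results. In 8 cells (4 in set 1, 3 in set 2 and 1 in set 4) at least 2 of the neutrophil granule genes Camp, Ngp and Ltf were detected. These 8 cells held 99.5% of all Camp UMIs and 93.5% of all S100a8 UMIs of the 647 cells, but 0 of 1631 Ccr2 UMIs and 0 of 778 Csf1r UMIs. The Camp share follows in part from how the cells were picked, while S100a8, Ccr2 and Csf1r were not used to pick them. A further 28 cells also met a gate for plasmacytoid dendritic cells (Siglech with Ccr9, Cox6a2 or Klk1), 5 of them in set 1, 3 in set 3 and 20 in set 4. Of 24427 distinct barcodes 373 occurred with more than 1 suffix, among them those of 19 classical monocytes, though no barcode was a classical monocyte in more than 1 set.

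RNA of other cell types was present in most cells of the selection. At least 2 of 5 hepatocyte genes were detected in 437 of the 647 cells (67.5%), and in 97.6% of those of set 4. In cells thinned to 1000 UMIs the hepatocyte gene Alb was seen in 47.2% of classical monocytes and in 42.8% of T cells. The summed level of the 5 hepatocyte genes was 1395, 5679, 719.7 and 4843 in classical monocytes of sets 1 to 4 and 1001, 6750.4, 329.5 and 4263 in T cells, in UMIs per 1000000 UMIs of the cell (CPM). It was high in sets 2 and 4 in both cell types. All 5 of those genes were detected. Cells that carry them were left out only together with cells that carry any other type, so the part of these genes alone was not tested. At least 2 of 5 markers were found for erythroid cells in 314 cells (48.5%), for neutrophils in 79 (12.2%), for plasma cells in 49 (7.57%), for non-classical monocytes in 38 and for plasmacytoid dendritic cells in 34. In all, 225 cells (34.8%) held those of some type other than hepatocytes and erythroid cells. For T, NK, B and Kupffer cells the counts were 7, 8, 7 and 2, but the rule had required Cd3e, Cd79a, Clec4f and Vsig4 to be 0, and the last pair are among the 5 Kupffer cell markers. Of the 5 basophil and mast cell markers 4 were at 0 in every cell.

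Lyz2, which encodes the lysozyme of myeloid cells and which the rule required, was abundant in each set. Its level, the mean over cells in CPM, was 36093 CPM in set 1, 10557 in set 2, 10077 in set 3 and 16883 in set 4. Set 1 stood above the others. Chil3, which encodes the chitinase-like protein Ym1, reached 12688 CPM in set 1 against 2697, 1959 and 1137 CPM in sets 2, 3 and 4. It was the marker that varied most, by 11.1-fold between the highest and the lowest set with 10 CPM added to both. In T cells, used here as the background, Chil3 stood between 0 and 24.9 CPM.

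The chemokine receptor gene Ccr2 was far steadier, at 606.9, 796.4, 1103 and 850.8 CPM in sets 1 to 4. F13a1, which encodes the A chain of coagulation factor XIII, stood at 637.1, 766.6, 485.2 and 201.2 CPM. Ly6c2, a gene of the Ly6C surface protein, stood at 1339, 830.3, 1043 and 1521 CPM. Set 4, which had the least F13a1 and Chil3, thus had the most Ly6c2. The almost identical neighbour Ly6c1, known from endothelial cells, stood at 5.64, 0, 4.66 and 4.79 CPM. Reads of this pair are uncertain, since the last 400 bases of their transcripts are 94.8% identical with a shared run of 124 bases. The same holds for Lyz2 and Lyz1 (94.8% identical, longest shared run 104 bases).

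At 1000 UMIs per cell Chil3 was detected in 55.9% of classical monocytes, Ccr2 in 51.8%, F13a1 in 28.7% and Ly6c2 in 59.0%. T cells gave 1.19%, 5.46%, 0.341% and 32.1% for the same genes, and plasmacytoid dendritic cells gave 69.0% for Ly6c2. Ly6c2 was therefore no mark of monocytes alone in this tissue, whereas Chil3 and F13a1 were nearly absent from T cells. The most common combination was all 4 markers together, in 158 cells (24.4%), and 72 of these lay in set 1. Chil3 with Ccr2 and Ly6c2 followed with 119 cells (18.4%), then Ccr2 with Ly6c2 with 109 cells (16.9%), 70 of them in set 4.

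**Figure D1:**
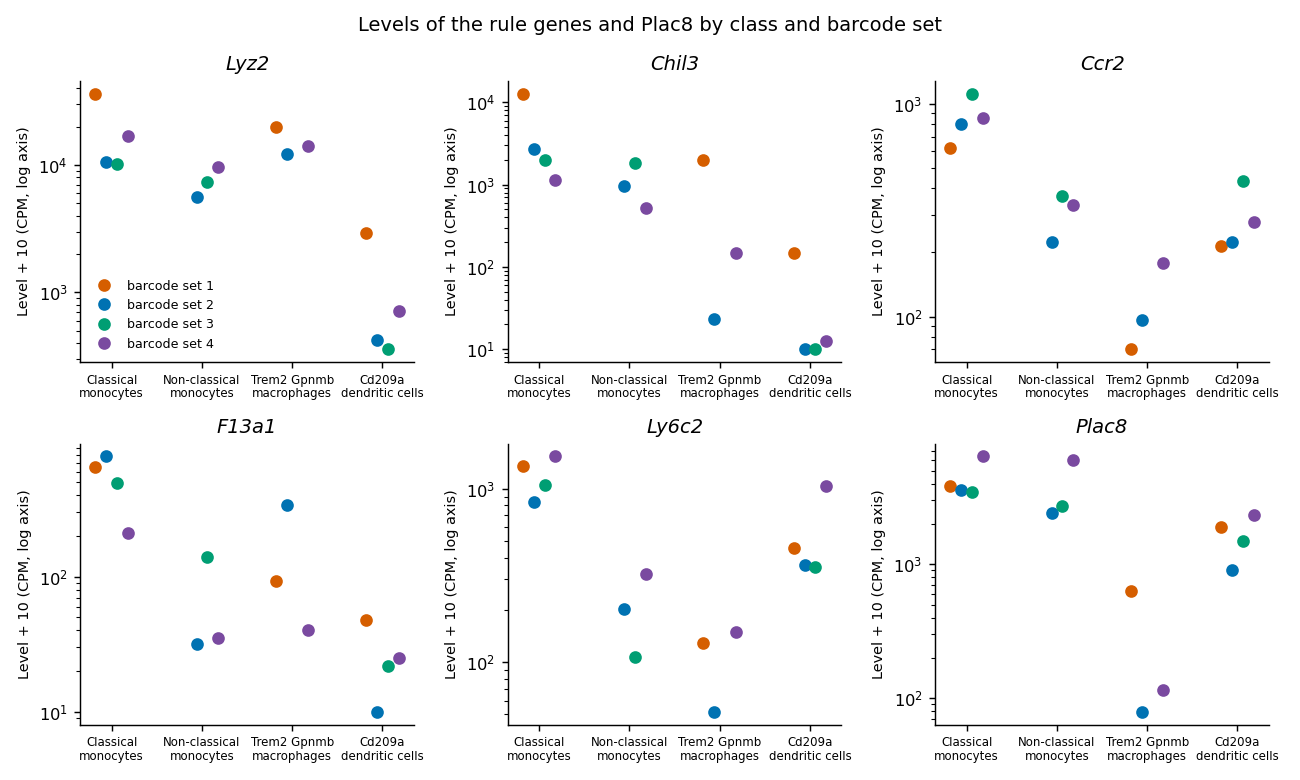
Level plus 10 CPM, on a log axis, of Lyz2, the 4 markers of the rule and Plac8 in 4 cell classes, 1 point per barcode set with at least 20 cells of the class. Chil3 spans 1137 to 12688 CPM between sets in classical monocytes, while Ccr2 spans 606.9 to 1103 CPM; Plac8 is as high in non-classical as in classical monocytes in set 4 (5983 and 6355 CPM).

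The number of detected markers went with the level of other monocyte genes that the rule did not use. Cells with 1, 2, 3 and 4 markers that met the rest of the rule numbered 682, 272, 217 and 158, and those with 1 marker lie just outside the selection. The level of Fn1, which encodes fibronectin, was 134.8 CPM with 1 marker, 281.2 with 2, 560.7 with 3 and 925 with 4. Ifitm6, an interferon-induced membrane protein gene of monocytes, stood at 134.6, 394.6, 629.1 and 1103 CPM in the same order. Over the pooled sets both were higher with each marker added, though in set 2 Ifitm6 stood at 499.8 CPM with 2 markers and 337.8 CPM with 3. Plac8, a gene highly expressed in Ly6C-high monocytes, stood at 1796, 4375, 5907 and 4954 CPM. Cd74, the invariant chain of MHC class II, ran the other way, from 10933 and 10623 CPM with 1 and 2 markers to 5352 with 3 and 1644 with 4. The plasmacytoid gene Siglech stood at 147.8 and 157.9 CPM with 1 and 2 markers and at 10.95 and 22.98 CPM with 3 and 4. These levels pool the sets, and set 1 makes up 72 of the 158 cells with 4 markers.

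The markers lie on different chromosomes. In the GENCODE vM21 annotation of GRCm38, Lyz2 lies at chr10:117277331-117282321 (minus strand), Chil3 at chr3:106147554-106167564 (minus), Ccr2 at chr9:124101950-124113557 (plus), F13a1 at chr13:36867178-37050244 (minus), Ly6c2 at chr15:75108158-75111970 (minus) and Ly6c1 at chr15:75044018-75048830 (minus). The 250 bases before the transcript start of Lyz2, Chil3 and Ly6c2, and of Ly6c1 as the neighbour that these cells hardly used, are shown because the genes stand high together in these cells or, for Ly6c1, near 0. They are RefSeq's, on GRCm38.p6, 5′ to 3′ along the gene, all on the minus strand, and capitals mark AGGAAGT or its reverse complement ACTTCCT, which holds the GGAA core read by ETS factors such as Spi1 (PU.1), a factor needed for all myeloid cells. They come from chr10:117282273-117282522 (Lyz2), chr3:106167565-106167814 (Chil3), chr15:75111972-75112221 (Ly6c2) and chr15:75048838-75049087 (Ly6c1).
Lyz2: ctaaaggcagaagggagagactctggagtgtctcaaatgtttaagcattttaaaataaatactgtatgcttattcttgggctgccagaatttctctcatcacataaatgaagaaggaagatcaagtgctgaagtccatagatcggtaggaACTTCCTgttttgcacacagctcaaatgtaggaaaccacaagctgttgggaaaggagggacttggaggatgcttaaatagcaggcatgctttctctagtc
Chil3: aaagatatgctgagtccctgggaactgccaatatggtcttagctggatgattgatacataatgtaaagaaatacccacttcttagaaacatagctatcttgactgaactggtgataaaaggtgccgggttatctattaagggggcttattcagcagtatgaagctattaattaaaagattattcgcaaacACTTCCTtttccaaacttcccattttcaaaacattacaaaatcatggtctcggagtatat
Ly6c2: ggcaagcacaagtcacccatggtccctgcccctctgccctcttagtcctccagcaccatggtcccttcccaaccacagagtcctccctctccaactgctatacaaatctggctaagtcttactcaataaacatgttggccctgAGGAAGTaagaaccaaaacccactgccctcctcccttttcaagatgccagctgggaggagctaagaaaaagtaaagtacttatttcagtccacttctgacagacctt
Ly6c1: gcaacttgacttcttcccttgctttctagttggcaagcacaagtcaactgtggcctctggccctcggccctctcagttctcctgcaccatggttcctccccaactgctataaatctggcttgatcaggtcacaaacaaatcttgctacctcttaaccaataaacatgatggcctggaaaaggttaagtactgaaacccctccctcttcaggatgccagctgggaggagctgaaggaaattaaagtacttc
The motif, 7 bases long and searched on both strands, was chosen after these promoters had been read. At least 1 window of 4 of the 5 genes Lyz2, Chil3, Ccr2, F13a1 and Ly6c2 holds it, that of Ccr2 does not, and for F13a1 it lies in the second of its windows. Of all 27025 genes with a window 8.8% hold it, and of 9 monocyte genes with a window 2 do (22.2%). The first windows of Ly6c2 and Ly6c1 are 59.0% identical. That of Ly6c1 lacks the motif, although a second Ly6c1 window holds it. The match describes letters and says nothing of binding.

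Beyond the rule genes, and leaving out mitochondrial and ribosomal protein genes, the highest mean levels over the sets were those of the actin-binding Tmsb4x (13392 to 22084 CPM over the sets) and of Malat1, a long RNA kept in the nucleus (6667 to 19415 CPM). Fth1, a ferritin chain that stores iron (7239 to 11552 CPM), Actb, which encodes β-actin (7502 to 12309 CPM), and Ftl1, the other ferritin chain (5016 to 10871 CPM), came next. Plac8 stood at 3835, 3580.3, 3456 and 6355 CPM in sets 1 to 4 and was detected in 89.1% of the cells at 1000 UMIs. Non-classical monocytes gave 86.5% for Plac8, Trem2 Gpnmb macrophages 11.7% and plasmacytoid dendritic cells 94.7%, so it was shared with some other blood-derived cells.

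All 13 monocyte genes of the list, Plac8 among them, were above 20 CPM. Wfdc17, a secreted protease inhibitor of myeloid cells, stood at 1894, 1564, 1001 and 3625 CPM, Ms4a6c at 1324, 771.4, 925.1 and 819.2 CPM, and Hp, which encodes haptoglobin, at 1649, 706.9, 512.5 and 761.5 CPM. Csf1r, the receptor of the growth factor that keeps monocytes and macrophages alive, stood at 323.2, 666.3, 483.3 and 377 CPM.

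Inflammatory mediators were abundant. Il1b, which encodes interleukin-1β, stood at 5257, 3463, 1165 and 2798 CPM and was detected in 66.9% of the cells at 1000 UMIs, against 5.80% of T cells. Cxcl2, a chemokine that attracts neutrophils, stood at 4232, 2746, 2023 and 1438 CPM. Both were highest in set 1 and their order over the other sets differed. Ccl6 and Ccl9, chemokines of myeloid cells, stood between 954.1 and 1587 CPM and between 358.6 and 1195 CPM. Nfkbia, the inhibitor that NF-kB itself induces, lay between 1630.2 and 2915 CPM, and the lipopolysaccharide receptor gene Cd14 between 476.4 and 2060 CPM. Il1b and Cxcl2 were not particular to classical monocytes. Neutrophils had more of both in each set, with 4121 to 8267 CPM of Il1b and 4481 to 6883.5 CPM of Cxcl2. Kupffer cells had less Cxcl2 in set 1 (2418.7 CPM) and more in sets 2, 3 and 4 (3507.4, 2511.5 and 1886.5 CPM).

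Genes often named for suppressive tumour myeloid cells differed widely in level. Arg1, an arginine-consuming enzyme, was detected in 4 of 614 cells at 1000 UMIs (0.651%), and Nos2, which makes nitric oxide, in 0 of 614. The exact upper limit of 0.599% holds for cells with a Nos2 UMI at this depth, not for cells that express it. T cells gave 0.853% for Arg1, so its share was at the background. Arg2, the second arginase, stood at 121.9, 117.8, 83.2 and 82.5 CPM. Thbs1, which encodes thrombospondin 1, and Tgfbi, a matrix protein gene induced by TGF-β, were well expressed, at 566.2, 1442, 546.2 and 813.5 CPM and at 328.2, 1041, 816.5 and 450.2 CPM. Set 2 was highest for both. Mki67 or Top2a, genes of dividing cells, was seen in 16 of 614 cells (2.61%, exact interval 1.497 to 4.197%). By set the shares were 3.31%, 8.16%, 4.03% and 0.938%, and without set 4 the share was 4.42%. T cells gave 6.49% in all, 4.60%, 13.04%, 30.8% and 2.94% by set, and 4.12% without set 3. The pooled shares of both cell types thus turn on single sets, while within each set the T cell share was the higher of the pair.

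S100a8 and S100a9, the calprotectin genes of neutrophils and classical monocytes, rested on the 8 granule-gene cells. With them S100a8 stood at 4345, 5101, 22.7 and 887.5 CPM in sets 1 to 4, and without them at 968.9, 168.1, 22.7 and 115.5 CPM. S100a9 stood at 2573, 3360, 8.88 and 561.1 CPM with them and at 512.2, 88.1, 8.88 and 68.7 CPM without. T cells of the same sets gave 702.6, 39.7, 33.5 and 247.8 CPM of S100a8, so the remaining level lay above that of T cells in sets 1 and 2 and below it in sets 3 and 4. B cells gave 913.7, 156.4, 123.2 and 294.5 CPM of S100a8, close to the remaining level in sets 1 and 2 and above it in sets 3 and 4. For S100a9 T cells gave 574.6, 129.2, 19.85 and 159.4 CPM, above the remaining level in every set. At 1000 UMIs S100a8 was detected in 7.66% of classical monocytes, 6.14% of T cells and 95.5% of neutrophils. The neutrophils had been selected on Retnlg, S100a8 and S100a9, so their share was largely set by that rule. Camp, which encodes the antimicrobial cathelicidin, stood at 784.6, 1259, 0 and 228.1 CPM with the 8 cells and at 1.85, 0, 0 and 4.52 CPM without them. The cells had been picked on Camp among other genes, so this fall follows in part from that choice. Of the serine protease genes of granules, Elane had 70.7% of its UMIs in the 8 cells and Prtn3 had 40.03%. Prtn3 without them still stood at 150.3, 75.04, 62.32 and 29.5 CPM in sets 1 to 4.

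**Figure D2:**
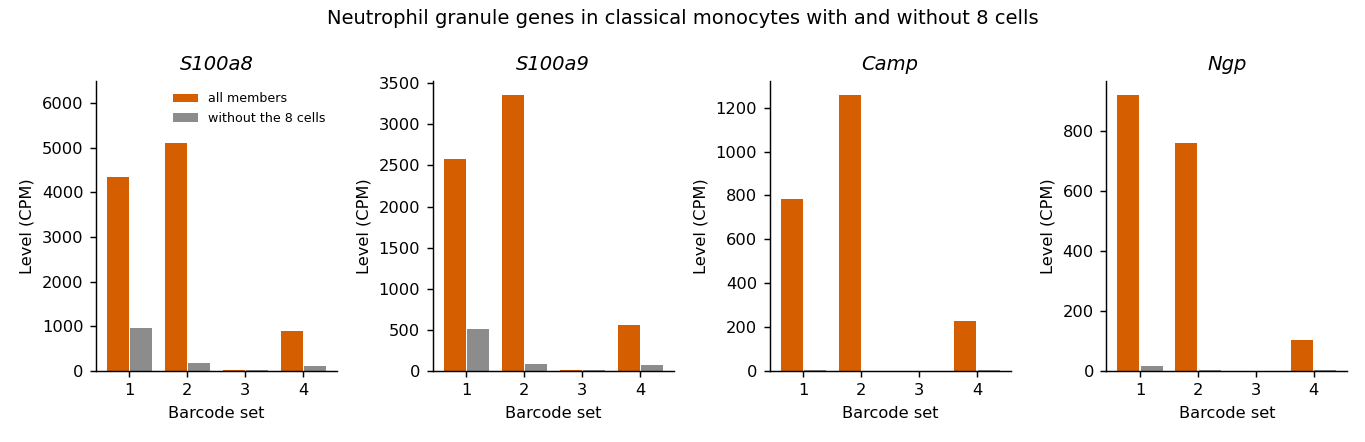
Level in CPM of 4 neutrophil granule or calprotectin genes in classical monocytes of each barcode set, with all cells and without the 8 cells that hold at least 2 of Camp, Ngp and Ltf. Camp and Ngp, which were used to pick those cells, lie between 0 and 16.7 CPM without them, and S100a8 in set 2 goes from 5101 to 168.1 CPM.

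Classical monocytes were compared with 3 related classes, each set by its own markers: 178 non-classical monocytes (Ace with Treml4, Adgre4, Eno3 or Spn), 121 macrophages with Trem2 and Gpnmb, and 453 dendritic cells with Cd209a. The dendritic cells also had to hold the MHC class II gene H2-Aa, and Flt3, Clec10a, Kmo or Mgl2. For each gene of at least 20 CPM the log2 ratio of the levels, with 10 CPM added to both, was taken in every set that had at least 20 cells of both classes. A gene was called higher or lower when it differed at least 2-fold in the same direction in all of those sets. Genes of either selection rule were left out. The sets are used to show how far a difference repeats and carry no error of a mean.

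Against non-classical monocytes (sets 2, 3 and 4), 24 of 4977 genes were called higher in classical monocytes (0.482%) and 29 lower (0.583%). Among the genes described here Fn1 had the largest excess in the set where it was smallest. It stood at 789.2, 681.7 and 371.9 CPM in classical and at 114.8, 163.3 and 66.8 CPM in non-classical monocytes, with a median log2 ratio of 2.31 (2.00 to 2.68). The ranges did not overlap, but genes were named here for large ratios in every set, which favours such a gap. Hp stood at 706.9, 512.5 and 761.5 CPM against 246.5, 241.9 and 348 CPM (median 1.11). Il6, the cytokine interleukin-6, was higher at 184.1, 92.1 and 142.4 CPM against 46.4, 0 and 46.3 CPM, and Ccl5, a chemokine that attracts T cells, at 117.3, 192.1 and 484.9 CPM against 8.91, 20.2 and 148.2 CPM.

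Prtn3, a granule protease that is made early in myeloid development, had the largest median log2 ratio, 2.85 (1.70 to 5.06), and 18.2% of its UMIs came from 1 cell. Cd177, a neutrophil surface gene, stood at 124.4, 179.6 and 40.6 CPM against 0, 56.8 and 11.6 CPM, and 4.90% of its UMIs came from 1 cell. In set 2 the 3 granule-gene cells held 87.75% of the Prtn3 UMIs and 50% of the Cd177 UMIs of classical monocytes. The remaining named genes that were higher had median log2 ratios between 1.13 and 1.36. They are Isg15 and Ifi203, both induced by interferon, Lgals1, which encodes galectin-1, and Hacd4, an enzyme of fatty acid elongation. Isg15, Ifi203 and Hacd4, and Pglyrp1 and Plagl2 among the lower genes, lost the call when UMIs were summed over the class in place of averaged over cells, with medians of 1.11, 1.16, 1.10, -2.38 and -1.64. Ccl5, Lgals1 and Stk10 lost it when at least 3 markers were required, with medians of 2.18, 1.45 and -1.26. Ccl5, Lgals1, Ifi203 and Plagl2 lost it without cells that carry another type, hepatocyte and erythroid markers not used (2.62, 1.45, 1.29 and -1.35). Cd300ld lost it after thinning (-1.4952). Ear2 lost it without cells that carry RNA of another type, which leaves set 3 alone (-0.79).

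Genes lower in classical monocytes included several known from patrolling cells. Slc12a2, a sodium, potassium and chloride transporter, stood at 0, 7.54 and 2.43 CPM in sets 2, 3 and 4 against 79.4, 197.2 and 87.1 CPM (median log2 ratio -3.16). Ear2, an eosinophil-associated ribonuclease, stood at 54.1, 57.8 and 84.0 CPM against 579.7, 219.7 and 533.1 CPM (-2.53). Cd36, a scavenger receptor for lipids, stood at 12, 28.4 and 61.5 CPM against 430.5, 208.8 and 310.4 CPM (-2.51). None of these ranges overlapped, but genes were named here for large ratios in every set, which favours such a gap. Pou2f2, a transcription factor of non-classical monocytes, was lower with a median log2 ratio of -1.80, Cd300ld, a gene of the CD300 receptor family, with -2.09, and the G protein subunit gene Gngt2 with -1.60. Pglyrp1, a peptidoglycan-binding granule gene, was lower at 100.8, 8.19 and 81.8 CPM against 380, 232 and 507.3 CPM, and the transglutaminase gene Tgm2, the kinase gene Stk10 and the zinc finger gene Plagl2 were lower with medians of -1.53, -1.36 and -1.44.

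Of 12 genes of patrolling monocytes 8 could be compared, 7 were lower in all 3 sets and 2 were called lower. Their median log2 ratio was -1.61 (-1.68 to -1.44), against 0.02 over all genes tested. Of all genes tested, 31.3% went the same way in all 3 sets, up or down. Nr4a1 stood at 762.4, 750.5 and 407.7 CPM against 1415, 2069 and 830.9 CPM, short of the threshold in set 2 (-0.88), and the integrin gene Itgal at 572.9, 374.3 and 175.3 CPM against 865.4, 1128 and 546.4 CPM. Of the 13 monocyte genes 3 were called higher and 0 lower, with a median of 0.71 (0.58 to 0.80). Suppressive and tumour-associated genes had a median of 0.99 (0.41 to 1.01) and 0 calls among 14. Myeloid transcription factors ran lower, with a median of -0.40 and 1 called lower of 15, and Spi1 stood at 417.1, 441.2 and 443.8 CPM against 534.1, 584.4 and 603.7 CPM. Cx3cr1, a receptor usually higher on patrolling cells, stood at 250.8, 166.6 and 107.6 CPM against 153.8, 212.7 and 150.3 CPM and had no common direction.

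Macrophages with Trem2 and Gpnmb, a lipid-associated type seen in damaged liver, made the next comparison. In sets 1, 2 and 4, 110 of 4838 genes were called higher in classical monocytes (2.27%) and 147 lower (3.04%). The named gene with the largest median was Plac8, at 3835, 3580.3 and 6355 CPM against 620.1, 69.1 and 104.9 CPM (median log2 ratio 5.50, 2.61 to 5.79). Ifitm6 stood at 1130, 465.7 and 616.2 CPM against 93.8, 10.2 and 16.4 CPM (4.56). Mcemp1, a membrane protein of monocytes and mast cells, stood at 323.3, 215.5 and 171.9 CPM against 49.1, 0 and 0 CPM. Tppp3, a tubulin-binding protein gene, had a median of 3.9997 and Hp one of 2.86. In all of these the 2 classes did not overlap, but genes were named here mainly for large ratios in every set, which favours such a gap.

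Camp, Ngp, S100a8, S100a9 and Wfdc21 were also called higher, with medians of 4.91, 4.45, 4.85, 4.52 and 3.02, and these rest on the 8 granule-gene cells. Camp and Ngp had been used to pick those cells, unlike S100a8, S100a9 and Wfdc21. Without those cells Camp and Ngp were below the level tested, and S100a8, S100a9 and Wfdc21 had medians of 1.68, 1.72 and 1.90. Calls then came to 98 higher and 143 lower. The calcium-binding genes S100a6 and S100a4 do not depend on them. S100a6 stood at 3866, 1835 and 2667 CPM against 1173, 798.3 and 255.2 CPM, and S100a4 at 2491, 1724 and 1292 CPM against 647.9, 366 and 89.2 CPM. Of the 7 S100 genes 5 were called higher (median 1.83, and 1.79 without the 8 cells).

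The genes lower in classical monocytes included several of mature macrophages. Pf4, a chemokine also known from platelets, stood at 3.20, 0 and 5.49 CPM in sets 1, 2 and 4 against 399.8, 896.4 and 421.3 CPM (median log2 ratio -4.96). The complement genes C1qa, C1qb and C1qc had medians of -4.25, -3.90 and -4.32, and C1qa stood at 199.9, 50.7 and 254.2 CPM against 3159, 1654 and 5016 CPM. Igf1, a growth factor gene, stood at 8.08, 0 and 21.2 CPM against 341.8, 367.1 and 276 CPM. The iron exporter gene Slc40a1 stood at 1.16, 4.52 and 22.5 CPM against 183, 177 and 448.9 CPM. Each of them was lower by more than 8-fold in every set, with 10 CPM added. The elastase gene Mmp12, the lysosomal membrane gene Cd63, Ms4a7 and the interleukin-18 inhibitor gene Il18bp were lower with medians of -3.85, -3.82, -3.52 and -3.36.

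By lists, all 12 lipid-associated macrophage genes were lower in the 3 sets and 8 were called (median log2 ratio -2.62, against 0.04 over all genes). Of all genes tested, 42.6% went the same way in the 3 sets, up or down. Apoe, which carries lipids between cells, stood at 8838, 2584 and 5096 CPM against 40234, 15251 and 44261 CPM, and Spp1, which encodes osteopontin, at 129.1, 335.3 and 82.6 CPM against 866, 5795 and 203.4 CPM. Over all classical monocytes 46.8% of the Spp1 UMIs came from 1 cell. Of 14 lysosome genes 13 were lower in every set and 6 were called (median -1.07). The protease gene Ctsb stood at 1111, 1722 and 918.2 CPM against 6593, 8569 and 4837 CPM. Chemokines ran lower too (median -1.05, 4 of 16 called lower and 1 higher), as did iron genes (-1.27, 2 of 5 called lower). Adhesion molecules ran higher (median 1.17, 2 of 12 called), and of 13 monocyte genes 6 were called higher (median 1.81).

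Against the 453 dendritic cells with Cd209a (sets 1 to 4), 145 of 4839 genes were called higher in classical monocytes (3.0%) and 98 lower (2.03%). Thbs1 stood at 566.2, 1442, 546.2 and 813.5 CPM against 13.97, 15.76, 16.55 and 20.7 CPM (median log2 ratio 4.67). Clec4e, a C-type lectin that senses mycobacterial lipids and dying cells, stood at 666.1, 747.4, 340.4 and 318.1 CPM against 31.7, 24.0, 4.96 and 15.6 CPM (4.25). For both genes the lowest classical monocyte value lay more than 10-fold above the highest dendritic cell value, but genes were named here mainly for large ratios in every set. Pla2g7, a lipid-cleaving enzyme, Fn1 and Cxcl2 followed with medians of 3.83, 3.78 and 3.39. Cebpb, a factor needed by monocytes, Arg2, and the redox enzyme genes Msrb1 and Gsr had medians of 3.04, 3.17, 3.15 and 3.14.

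Genes lower than in those dendritic cells fall into 2 kinds by what they are known to mark. Klrd1 (CD94) stood at 35.0, 8.61, 34.9 and 80.5 CPM against 657.6, 390.8, 389.7 and 541.1 CPM, and Cd209d, a lectin gene beside Cd209a, at 2.49, 0, 9.19 and 22.5 CPM against 83.7, 184.5, 277.3 and 235.4 CPM. H2-DMb2, a helper of peptide loading, Cd7 and Slamf9 had medians of -3.01, -2.92 and -2.68. The others are plasmacytoid or plasma cell genes: Siglech, Ccr9, Cox6a2 and Klk1 with medians of -2.88, -2.91, -2.65 and -2.47, and Iglc3 with -2.97. Of the 453 dendritic cells 129 also met the plasmacytoid gate, as did 28 classical monocytes. Without both, 46 genes were called lower, of which 32 were among the 98, and those 5 genes were no longer called, while Klrd1, Cd209d, H2-DMb2, Cd7 and Slamf9 still were. Siglech, Ccr9, Cox6a2 and Klk1 are the genes of the gate, so the loss of their calls follows from leaving its cells out. The genes called higher came to 143.

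All 7 MHC class II genes tested were lower than in the dendritic cells in each set and 4 were called, with a median of -1.78 (-3.37 to -1.35). The dendritic cells had been selected on H2-Aa, which was left out here. High levels of the other MHC class II genes in them follow in part from that selection. Of all genes tested, 38.5% went the same way in every set, up or down. Cd74 stood at 3143, 2552, 4280.3 and 9631 CPM against 32488, 15622, 13200 and 24619 CPM. Pattern recognition receptors had a median of 2.13 and 6 of 10 were called higher, among them Cd14 and Tlr2. Complement genes (1.90, 3 of 9), monocyte genes (1.78, 9 of 13), suppressive genes (1.34, 6 of 13), chemokines (1.299, 5 of 13) and chemoattractant receptors (1.22, 3 of 8) also ran higher, against a median of 0.06 over all genes. The complement receptor gene C5ar1 stood at 275.5, 182.9, 49.2 and 106.6 CPM against 11.2, 0, 0 and 1.39 CPM.

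**Figure D3:**
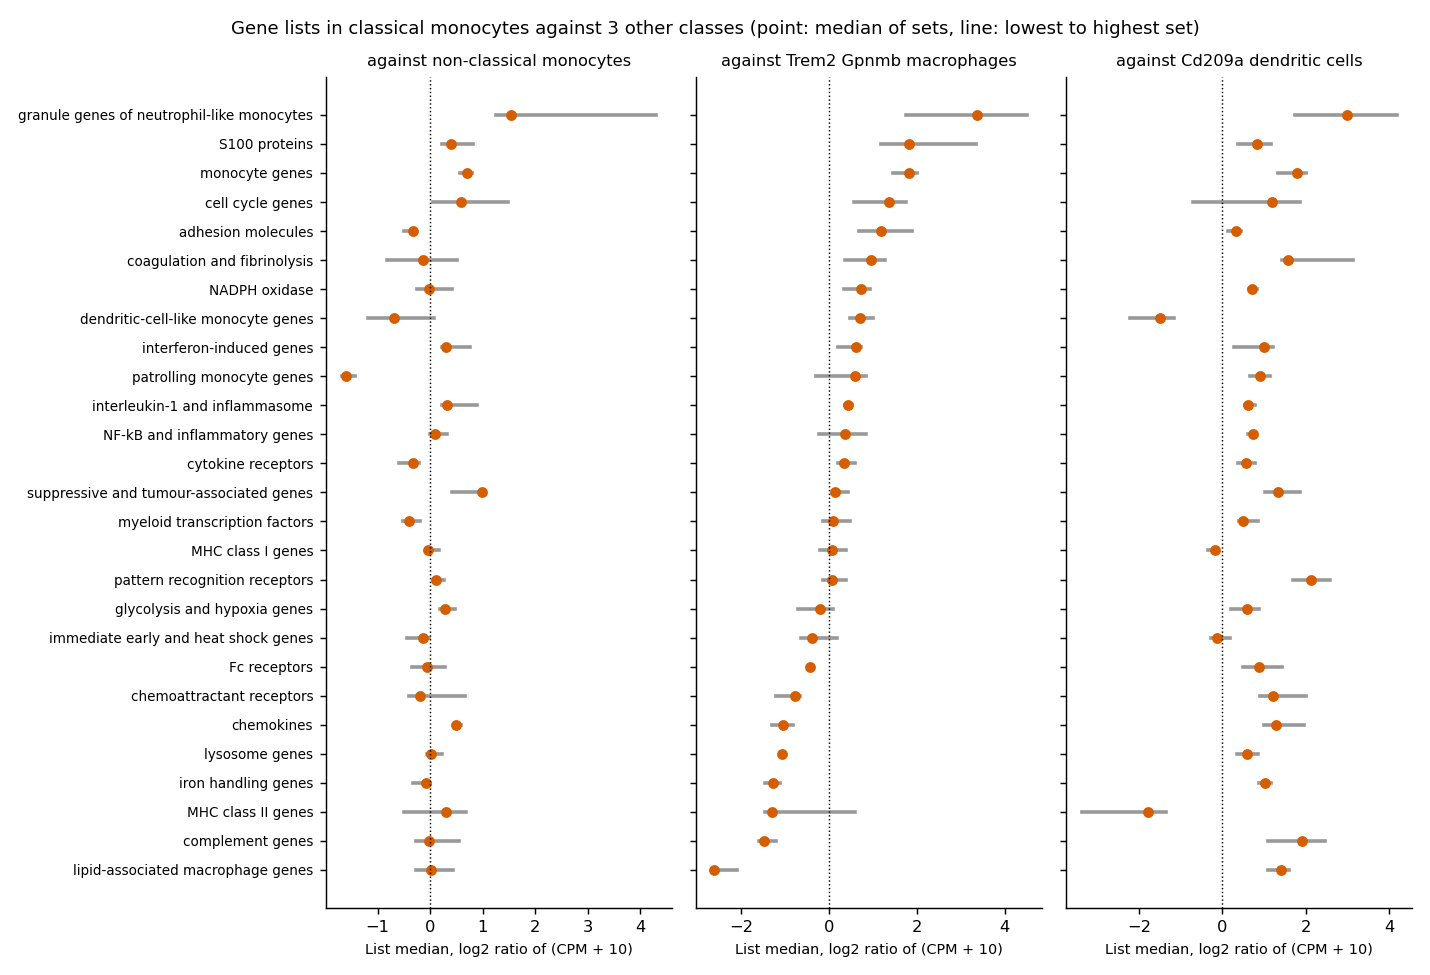
Median log2 ratio of each of 27 gene lists in classical monocytes against 3 other classes, with the point at the median of the sets and the line from the lowest to the highest set. Patrolling monocyte genes are low against non-classical monocytes (-1.61), lipid-associated macrophage genes against Trem2 Gpnmb macrophages (-2.62) and MHC class II genes against Cd209a dendritic cells (-1.78). The dendritic cells were selected on H2-Aa, and the granule list rests in part on 8 cells.

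Classical monocytes differed among themselves in MHC class II, which presents peptides to helper T cells. Of the 614 cells with at least 1000 UMIs, thinned to that number, 206 (33.6%) held 3 or more UMIs of H2-Aa, H2-Ab1 and H2-Eb1 together, 285 (46.4%) held 0 and 123 held 1 or 2. By set the high share was 14.05%, 30.61%, 34.7% and 40.9%. Set 1 had the fewest. T cells, used as the background, had 3.58% high, dendritic cells with Cd209a 91.6% and non-classical monocytes 45.5%. The dendritic cells were selected on H2-Aa, which is among the genes counted, so their share was set in part by their rule.

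The high share went down with the number of rule markers in each set. It was 54.8% of cells with 2 markers, 27.1% with 3 and 7.74% with 4 over all sets. In set 1 it was 51.9%, 8.33% and 1.43%, in set 2 41.7%, 26.3% and 0 of 6 cells, in set 3 48.5%, 20.5% and 15.8%, and in set 4 60.7%, 32.8% and 13.3%. In sets 2 and 3 fewer than 50% of the cells with 2 markers were high, and in set 2 as many were low as high. The rule itself used these markers. Of the 28 plasmacytoid-gate cells, 16 were high, 8 in between and 4 low.

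**Figure D4:**
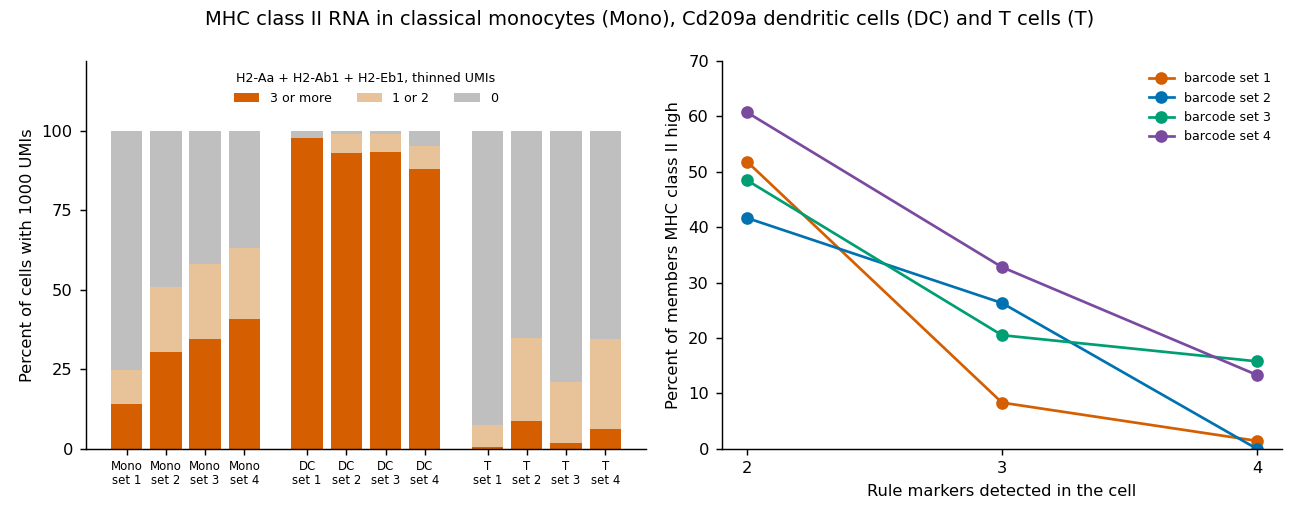
Left, percent of cells with 3 or more, 1 or 2, and 0 thinned UMIs of H2-Aa, H2-Ab1 and H2-Eb1 in classical monocytes (Mono), Cd209a dendritic cells (DC) and T cells (T) of each barcode set. The dendritic cells were selected on H2-Aa. Right, percent of classical monocytes that are MHC class II high by the number of rule markers detected, 1 line per set, which goes from 54.8% with 2 markers to 7.74% with 4 over all sets.

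In sets 3 and 4, the ones with at least 20 cells of each kind, 74 of 4891 genes were called higher in MHC class II high classical monocytes (1.51%) and 63 lower (1.29%). The lower ones included genes typical of classical monocytes. Fn1 stood at 114.6 and 84.8 CPM in high and at 1279 and 580.5 CPM in low cells of sets 3 and 4 (median log2 ratio -3.00), and at 284.4 against 738.3 CPM in set 1 and 0 against 914.2 CPM in set 2. Mgst1, a glutathione transferase gene, stood at 77.7 and 159.1 against 447.8 and 782.1 CPM (-2.31). Hp stood at 150.5 and 334.7 against 682.3 and 1094 CPM (-1.89) and Ifitm6 at 105.2 and 299.3 against 429.9 and 889.2 CPM (-1.74). Sets 1 and 2, with 17 and 15 high cells, had the same direction for all 4 genes. Thbd, which encodes the anticoagulant thrombomodulin, Pdlim1, Rbks, Cd177, Ccdc88c and Tmcc1 were lower with medians of -2.34, -2.86, -2.81, -2.43, -2.12 and -1.72. Of these, Cd177 and Ccdc88c lost the call after thinning (-1.87 and -1.62).

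Of the 4 markers of the rule 3 were lower in high cells of each set. F13a1 was lower in high cells of each set, with 125.2, 418.5, 199.8 and 64 CPM against 641.9, 741.2, 685.3 and 288 CPM, and Chil3 as well, with 4768, 2091, 962.2 and 570.1 CPM against 14335, 3610.4, 2385 and 1479 CPM. Ly6c2 stood at 1062, 565.8, 911.9 and 1012 CPM in high against 1456, 1022, 1310 and 1944 CPM in low cells. Ccr2 was the exception. It stood at 321.1, 1005, 1206 and 829.5 CPM in high against 593.6, 722.7, 1103 and 793.1 CPM in low cells, lower in set 1 and higher in the other sets. Plac8 and Csf1r had no common direction either. The rule used the markers, and a cell without F13a1 and Chil3 had to hold both Ccr2 and Ly6c2, so nothing is read from their levels here.

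Genes higher in the MHC class II high cells included some of macrophages and some that interferon-γ induces. Axl, a receptor for dying cells, stood at 301.4 and 134.8 CPM against 40.6 and 17.8 CPM in sets 3 and 4 (median log2 ratio 2.5010). C1qb stood at 387.5 and 812.7 CPM against 6.998 and 116.1 CPM (3.63), and C1qa and C1qc had medians of 3.04 and 2.55. Cxcl9, a chemokine induced by interferon-γ, stood at 1374 and 111.1 CPM against 15.9 and 16.7 CPM (3.96), and 1 cell held 30.4% of its UMIs. Aif1, the G protein regulator gene Rgs1 and the chemokine gene Cxcl16 had medians of 2.48, 2.43 and 2.43. Siglech and Cox6a2 were higher too (3.13 and 2.64). Without the plasmacytoid-gate cells 53 genes were called higher and 72 lower, and Axl, C1qa, C1qb, C1qc and Cxcl9 were still called, with medians of 2.56, 3.12, 3.73, 2.63 and 4.07.

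Of the 13 monocyte genes 10 were lower in both sets and 6 were called (median -0.78, against -0.05 over all genes), and of the 9 MHC class I genes all 9 were higher in both sets but 0 were called (median 0.72). Of all genes tested, 56.6% went the same way in both sets, up or down. The S100 genes ran lower (-1.02, 3 of 7 called), the complement genes higher (1.09, 4 of 9 called higher and 1 lower). Interferon-induced genes did not repeat, with medians of -0.22 and 1.06 in the 2 sets and 0 calls among 20.

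**Figure D5:**
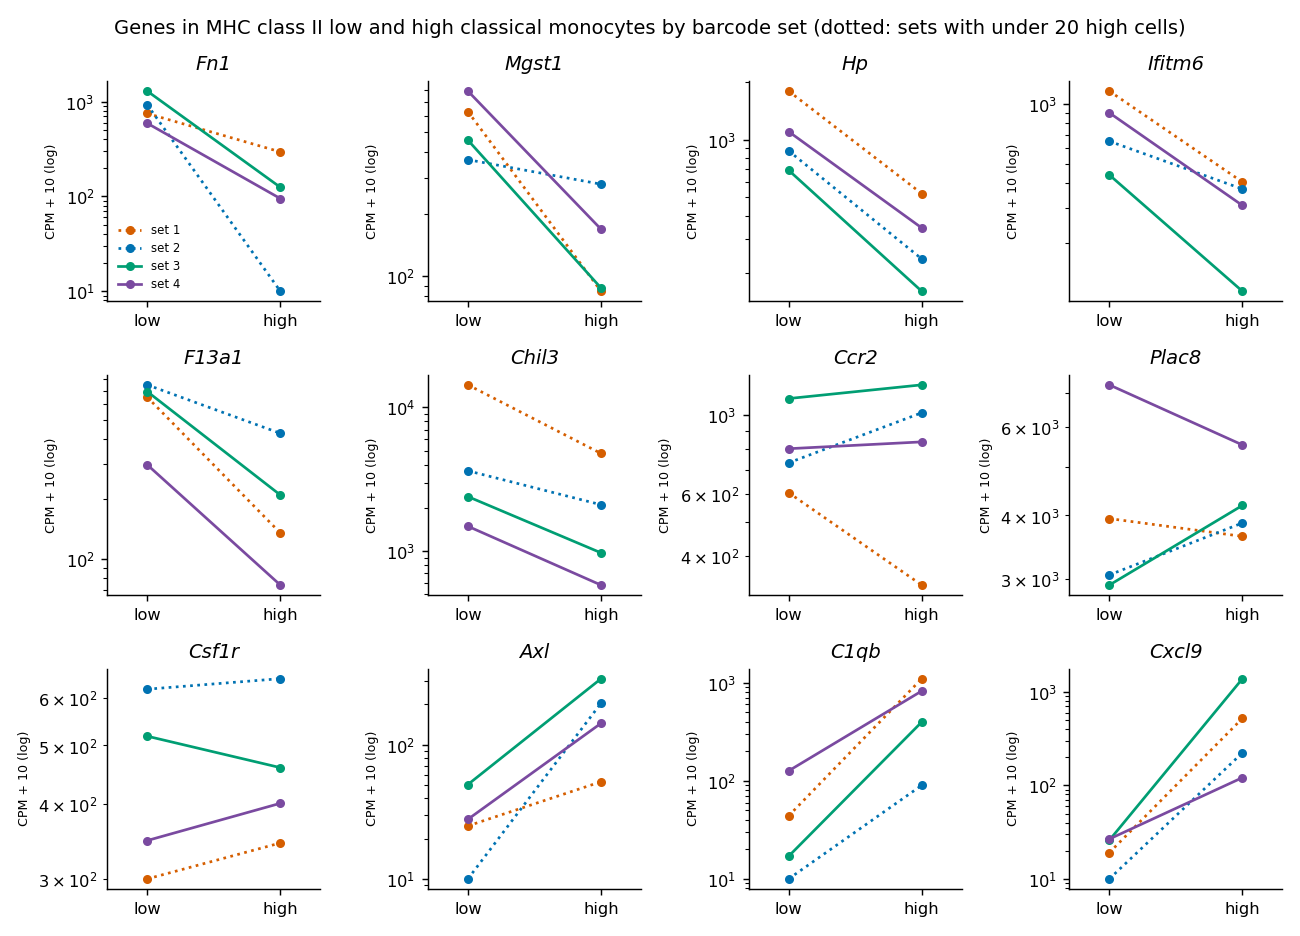
Level plus 10 CPM, on a log axis, of 12 genes in MHC class II low and high classical monocytes, 1 line per barcode set; dotted lines mark sets 1 and 2, which have fewer than 20 high cells. Fn1, Mgst1, Hp, Ifitm6, F13a1 and Chil3 are lower in high than in low cells of each set, Axl, C1qb and Cxcl9 are higher, and Ccr2, Plac8 and Csf1r have no common direction.

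Levels also differed between the sets within classical monocytes. Of 719 genes of at least 200 CPM, 308 (42.8%) differed at least 2-fold between the highest and the lowest set, and the median ratio was 1.86. Sets 1 and 4 were alike, with a median absolute log2 difference of 0.30, as were sets 2 and 3 with 0.31, while the other pairs lay between 0.49 and 0.61. Sets 1 and 4 were also those with the deeper cells, and the part of depth in this was not tested.

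The genes with the widest ratios were S100a9, S100a8, Camp and Ngp, which rest on the 8 granule-gene cells. After them came Clu, Hba-a1, Igha, Mup20 and Apoa2, genes of other cells whose RNA was also found in T cells. Igha, the heavy chain of IgA, stood at 123.9, 598.5, 2639 and 364.5 CPM in classical monocytes and at 115.9, 687.1, 3517 and 376.5 CPM in T cells. Mup20, a hepatocyte gene, stood at 43.2, 732.7, 95.6 and 954.6 CPM against 35.6, 992.1, 90.9 and 818 CPM in T cells. For Igha and Mup20 the sets with high levels were the same in both cell types. Hba-a1, a globin chain of red blood cells, was highest in set 3 in classical monocytes (2168 CPM) and in set 1 in T cells (631.8 CPM), and Clu was highest in set 3 in classical monocytes (671.3 CPM) and in set 4 in T cells (476.1 CPM). Over all classical monocytes 35.6% of the Hba-a1 UMIs came from 1 cell, and 34.2% of the Clu UMIs from 1 cell. C1qb ranged from 24.0 CPM in set 2 to 456.9 CPM in set 4.

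Cebpb and Chil3, singled out after their values were seen, are myeloid genes with wide ratios. Cebpb stood at 185 CPM in set 1 and at 2135, 1298 and 2536 CPM in sets 2, 3 and 4, and T cells gave 15.8, 367.1, 112.8 and 334.1 CPM with set 1 again the lowest. Chil3, highest in set 1, stood at 24.9, 0, 0 and 19.9 CPM in T cells, low values with set 1 again the highest. In neutrophils it stood at 736.2, 393.4, 326 and 168.4 CPM, the same set order as in classical monocytes. Kupffer cells, B cells, plasmacytoid dendritic cells, hepatocytes and endothelial cells were also highest in set 1, at 19.7 to 349.3 CPM. The source of this pattern was not tested.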

How the data were processed

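Cells of 4 liver tumour samples were profiled by droplet RNA sequencing. The submitters' processing notes name CASAVA 1.8, Cell Ranger, Seurat and the build mm10, without their settings. The deposited table holds the natural log of 1 plus the UMIs per 10000 UMIs of the cell. The authors' scaling could be undone: 100% of values above 0 came out as whole UMIs, with the lowest value of each cell taken as 1 UMI, within a relative tolerance of 0.001, and these gave 65920312 UMIs in all. Each cell holds at least 201 genes. No doublets were called here, and whether the authors removed any is not given in the sources used here.

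Levels are means over cells of UMIs per 1000000 UMIs (CPM). Log2 ratios use a pseudocount of 10 CPM, for genes that average 20 CPM or more, in sets with at least 20 cells of both classes. A call needs a 2-fold difference in the same direction in every such set, so fewer sets give more calls. Cells were thinned with seed 1. Intervals are exact Clopper-Pearson at 95% and cover counting error only. The calls were tested on simulated counts.

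Barcode suffixes could not be tied to samples, so the comparison of genotypes was not run, and no p-value is given. The members and all lists were chosen with earlier results of these data known. Clec7a and Ifi30, 2 list genes, were not in the table under these symbols. The text names Lyz2 and the 4 markers, up to 4 of the highest members of each of 27 lists, up to 10 genes per direction and comparison with the largest smallest ratio among called genes of at least 100 CPM in the higher class, the 15 highest genes, the 10 that varied most between sets, and Ly6c1. Some genes that this rule selects are not reported here. Others, such as Arg1, Nos2, Top2a, Alb and Ltf, were singled out after their values were seen. Alternatives were another pseudocount, other filters, summed UMIs, thinning, other marker thresholds and leaving out sets or cells that carry RNA of other types. The work used Python 3.11.15, numpy 2.4.6, scipy 1.17.1, matplotlib 3.10.9 and Biopython 1.88. Of the gene symbols 98.5% matched GENCODE vM21.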

Additional observations from a re-analysis of the deposited data

How the results depend on the processing

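No paired analysis was possible because the barcode sets carry no sample, group or replicate number. The share of classical monocytes, 2.61%, was 1.51% with at least 3 markers, 5.36% with at least 1, 3.54% among cells with at least 500 genes, 3.64% after thinning, 0.262% without cells that carry RNA of another type, 1.70% when hepatocyte and erythroid markers were not used for that (an alternative added after seeing the data, as were those on granule-gene and plasmacytoid-gate cells), and 2.31 to 3.21% with 1 set left out.

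Against non-classical monocytes the genes called higher and lower came to 56 and 51 with a pseudocount of 1 CPM, 7 and 16 at 100 CPM, 129 and 99 after thinning (sets 2 and 4 alone) and 896 and 1178 without cells that carry another type (set 3 alone). Summed UMIs gave 19 lower. Leaving out a set gave 54 to 234 higher and 58 to 223 lower, the most without set 4. Against Trem2 Gpnmb macrophages they came to 45 and 66 at 100 CPM, 171 were higher after thinning, and leaving out a set gave 169 to 274 higher and 203 to 238 lower, the most without set 1. Against dendritic cells they came to 70 and 35 at 100 CPM and 887 and 667 without cells that carry another type (set 3 alone), and 46 were lower without the plasmacytoid gate. For the MHC class II split they came to 123 and 129 with 1 CPM, 17 and 19 at 100 CPM, 142 and 175 after thinning, and 150 to 708 higher and 176 to 787 lower in 1 set alone. Fewer sets or genes account for part of these moves by construction; the cause of the others was not tested.

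Directions that turned were those of pattern recognition receptors (-0.0881 with summed UMIs, -0.0560 at 500 genes), interferon-induced genes (-0.0131 thinned) and immediate early genes (0.0033 thinned) against non-classical monocytes, suppressive genes (-0.0397 summed) and dendritic-cell-like genes (-0.49 with 3 markers, -1.34 to 0.86 with a set left out, the lowest without set 2) against macrophages, and transcription factors in the MHC class II split (0.0018 thinned). Against macrophages Camp turned to -0.71 with 3 markers and S100a9 to -1.04 without cells that carry another type, hepatocyte and erythroid markers not used. Of the other list medians and settings 1271 moved by less than the spread and 191 by more. Leaving out all cells that carry another type was not run for macrophages and the MHC class II split, where no set kept 20 cells. Depth limits sets 2 and 3 most.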
